A study of Mus musculus with 12 samples.

Results

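The genes described here are 10 transcripts of the integrated stress response and of the serine and one-carbon synthesis that this response controls: Atf4, Ddit3, Trib3, Chac1, Asns, Phgdh, Psat1, Psph, Shmt2 and Mthfd2. They were listed by symbol and joined by gene identifier to the deposited count table, which holds 56748 genes. All 10 passed the filter on low counts that left 15688 genes for testing. Bulk RNA sequencing was done on CD8+ T cells of 6 T cell receptor transgenic mice, 3 in each of 2 experiments, and each mouse gave 1 untreated library and 1 library with dichloroacetate (DCA), an inhibitor of the pyruvate dehydrogenase kinases. Whole spleens were stimulated for 24 hours with peptide and expanded for 6 more days with IL-2, in the absence or presence of 5 mM DCA. CD8 cells were then sorted on day 7. The 4 groups of 3 libraries were therefore untreated and DCA cells of experiment 1, and untreated and DCA cells of experiment 2. Neither the age nor the sex of the mice is stated in the labels used here.

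The labels disagree on the mice of experiment 1. Its sample titles say Pmel-1, but its strain tag says OT-1 and its genotype tag C57BL/6-Tg(TcraTcrb)1100Mjb/J, for which the stated peptide was SIINFEKL at 250 nM. In experiment 2 the title and the strain tag both say Pmel-1, the genotype tag gives the background B6.Cg-Thy1a/Cy with the transgene Tg(TcraTcrb)8Rest/J, and the stated peptide was gp100 at 1 uM. The receptor segment Trbv12-1 was at 169 to 214 CPM (counts scaled to a fixed library total) in experiment 1 and at most at 0.550 CPM in experiment 2. Trbv14 had 0 counts in experiment 1 and 1966 to 2876 CPM in experiment 2. The receptor, the peptide, the technical batch and the experiment cannot be told apart in any comparison between the experiments.

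Libraries held 28039699 to 41051066 counts. In experiment 1, 18382 to 19551 genes had a count, and in experiment 2, 23635 to 26571. The 5 CD8 T cell markers summed to 3580 to 4998 CPM in every library, and the 3 CD4 T cell markers to at most 1.19 CPM. The 5 B cell markers summed to 12.6 to 18.2 CPM in untreated and 27.3 to 38.2 CPM in DCA cells of experiment 1, and to 23.9 to 26.9 and 33.3 to 38.4 CPM in experiment 2. Nearly all of that sum was Cd79b (12.6 to 38.3 CPM), and 3 of the 5 markers had no count in experiment 1. The 3 NK cell markers summed to 38.3 to 59.1 CPM in untreated and 32.8 to 37.2 CPM in DCA cells of experiment 1, and to 6.61 to 8.08 and 2.75 to 5.85 CPM in experiment 2. Most of these counts were of Eomes (2.11 to 47.7 CPM). Klrb1c had at most 11.7 CPM and Ncr1 at most 0.132 CPM in any library. The 6 macrophage and monocyte markers reached at most 27.3 CPM, and 5 of the 6 had no count in untreated cells of experiment 1. Mitochondrial transcripts made up 1.01 to 1.14% of counts in untreated and 1.32 to 1.58% in DCA cells of experiment 1, and 2.27 to 2.85% and 2.11 to 2.40% in experiment 2. The part of these markers and shares in the results was not tested.

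In the integrated stress response, kinases that sense amino acid shortage, unfolded proteins, double-stranded RNA or heme deficiency phosphorylate the translation factor eIF2 alpha, which slows general translation and favours translation of the Atf4 message. The factor ATF4 then binds C/EBP-ATF response elements with partners such as C/EBP proteins and raises transcription of genes for amino acid synthesis, amino acid transport, tRNA charging and, in prolonged stress, cell death. Phgdh, Psat1 and Psph encode the enzymes that make serine from a glycolytic intermediate. Shmt2 and Mthfd2 encode mitochondrial enzymes that pass the carbon of serine to folate, a source of one-carbon units for purine synthesis in dividing T cells. ATF4 is controlled largely by translation, so its message is no measure of its activity.

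The DNA windows upstream of these genes were searched for the C/EBP-ATF response element, the sequence to which ATF4 and its partners bind. All 10 genes had a RefSeq promoter window in the build GRCm38.p6 (11 windows, 2 for Psat1), running from 250 bases before to 50 bases after the annotated start. The letters TGATGNAA, searched on both strands, occurred in the windows of Asns, Chac1 and Trib3, 3 of the 10 genes. They occurred for 2.79% of the 10256 tested genes with a window, 4.51% of the 27018 genes with a RefSeq window and 3.97% of all windows. The 8 letters CRE TGACGTCA occurred in none of the members' windows and for 3.53% of tested genes. The E-box CACGTG also occurred in none of them, and for 11.6% of tested genes. These are matches of letters in the reference, not measured binding, and no match says only that the letters are not in the window. The windows of the 3 genes with a match are shown with those of Phgdh and Psph, serine synthesis genes without one whose transcripts are set against each other below. Each runs 5′ to 3′ on the strand of the gene, from 250 bases before to 30 bases after the start, with the matched element in capitals (as TGATGAAA for Asns, and on the opposite strand for Chac1 and Trib3).
Asns (chr6:7693180-7693459, minus strand): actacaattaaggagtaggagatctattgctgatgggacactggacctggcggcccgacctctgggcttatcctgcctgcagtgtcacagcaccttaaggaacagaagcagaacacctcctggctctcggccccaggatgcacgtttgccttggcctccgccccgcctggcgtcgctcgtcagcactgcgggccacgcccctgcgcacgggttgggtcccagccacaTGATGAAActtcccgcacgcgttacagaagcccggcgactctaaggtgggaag
Chac1 (chr2:119350992-119351271, plus strand): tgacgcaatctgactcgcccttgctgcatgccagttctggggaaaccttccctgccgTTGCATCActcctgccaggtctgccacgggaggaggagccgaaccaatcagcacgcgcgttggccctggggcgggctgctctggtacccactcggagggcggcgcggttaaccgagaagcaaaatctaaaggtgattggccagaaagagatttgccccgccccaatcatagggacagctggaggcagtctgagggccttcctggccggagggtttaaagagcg
Trib3 (chr2:152344031-152344310, minus strand): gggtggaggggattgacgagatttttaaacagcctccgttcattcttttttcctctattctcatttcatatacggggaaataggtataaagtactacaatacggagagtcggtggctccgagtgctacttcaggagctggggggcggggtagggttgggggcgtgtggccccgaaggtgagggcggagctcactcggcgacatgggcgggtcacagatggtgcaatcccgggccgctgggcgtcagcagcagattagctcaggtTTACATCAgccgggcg
Phgdh (chr3:98339940-98340219, minus strand): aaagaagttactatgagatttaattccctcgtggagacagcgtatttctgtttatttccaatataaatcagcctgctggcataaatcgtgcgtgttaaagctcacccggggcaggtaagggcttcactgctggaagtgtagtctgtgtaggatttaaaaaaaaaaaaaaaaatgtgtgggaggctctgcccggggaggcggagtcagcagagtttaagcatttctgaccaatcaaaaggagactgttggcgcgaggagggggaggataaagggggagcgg
Psph (chr5:129787224-129787503, minus strand): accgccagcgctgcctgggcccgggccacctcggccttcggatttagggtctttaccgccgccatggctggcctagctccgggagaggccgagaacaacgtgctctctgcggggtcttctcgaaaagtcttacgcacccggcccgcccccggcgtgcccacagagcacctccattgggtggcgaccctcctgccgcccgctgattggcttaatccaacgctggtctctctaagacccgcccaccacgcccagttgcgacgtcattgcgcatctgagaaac
The element lay 23 to 16 bases before the start of Asns (positions -23 to -16) and further upstream in Chac1 (positions -193 to -186). In Trib3 it lay within the transcribed bases, at positions 15 to 22.

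The first question was whether DCA changed these transcripts. Over both experiments, Phgdh, Shmt2 and Psat1 were lower with DCA, at 0.800, 0.807 and 0.855 times their untreated level, and none of the 10 genes was called higher. That was 0 of 10 higher and 3 of 10 lower by edgeR's quasi-likelihood test at an adjusted p of 0.05, beside 7.01% and 9.80% of all tested genes. In either direction 16.8% of tested genes were called. The median log2 fold change of the 10 genes was -0.06, against -0.02 for all tested genes. At an unadjusted p under 0.05 the test had 3 genes higher and 5 lower, beside 4700 of 15688 tested genes in either direction. DESeq2 and limma-voom each called 0 of the 10 genes higher and 4 lower. These calls depended on how libraries were scaled. With cyclic loess scaling and limma, which removes differences that follow the level of a gene, 3 genes were called higher (Atf4, Asns and Psph) and 0 lower. With edgeR on genes of at least 5 CPM in 3 libraries, the same 3 genes were called higher and Phgdh, Psat1 and Shmt2 lower. No fold change over both experiments turned its sign in either setting. Because levels in bulk RNA are relative, fewer cells expressing a gene and less RNA per cell cannot be told apart.

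**Figure D1:**
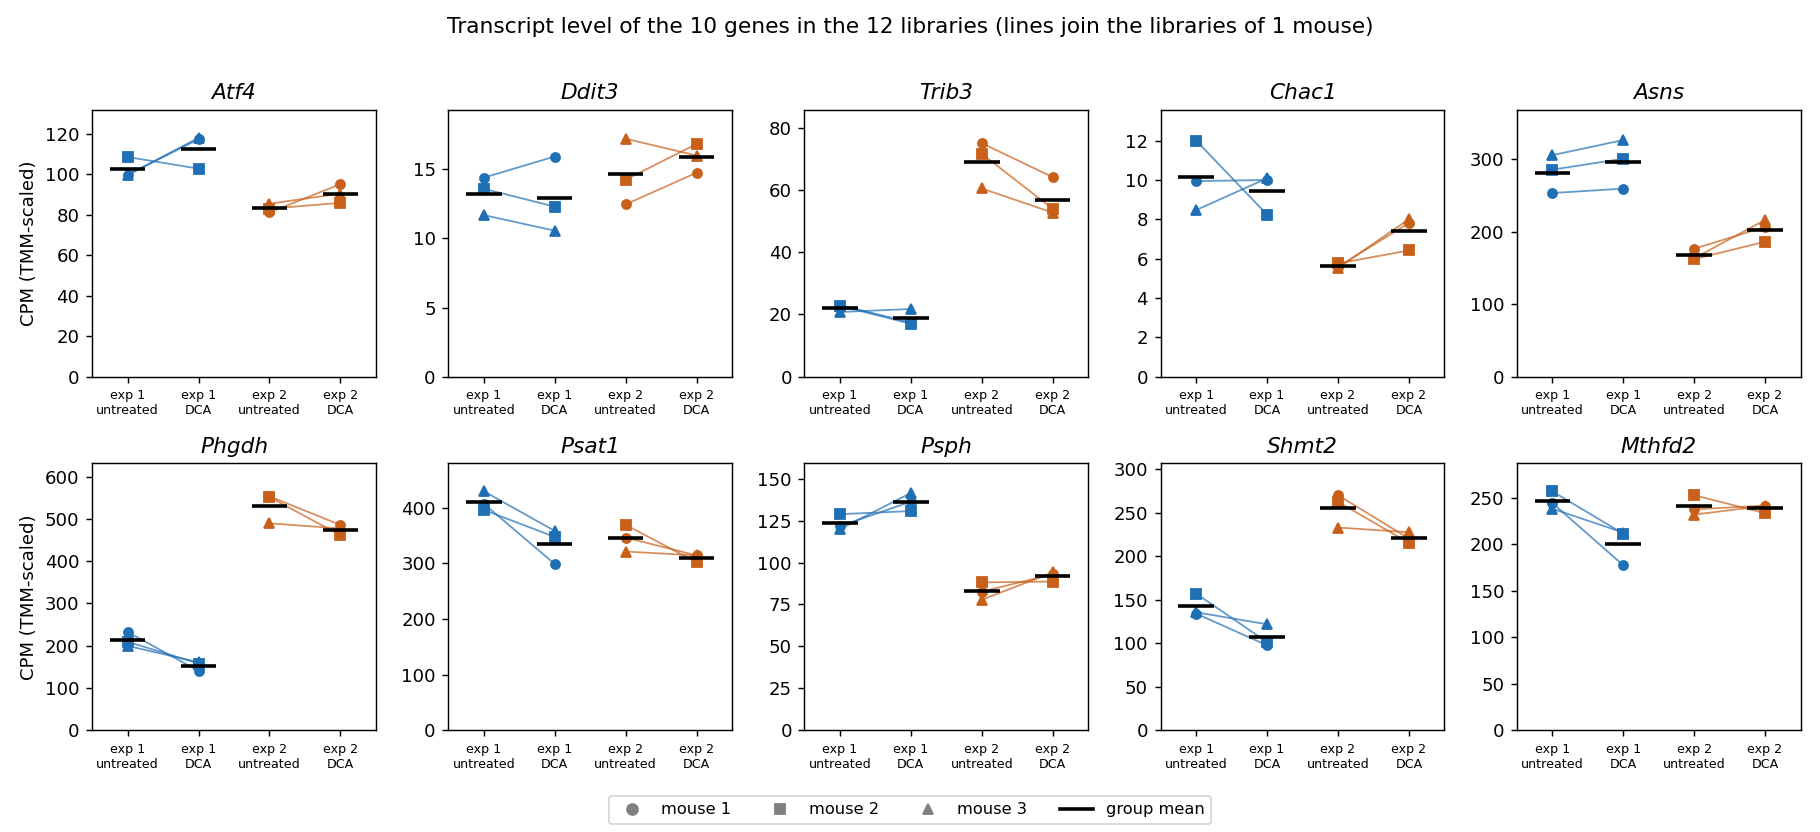
Level of each of the 10 genes in CPM after TMM scaling (vertical axis, linear, from 0) in the 4 groups of 3 libraries, with points for mice, thin lines joining the libraries of 1 mouse and black bars for group means. Phgdh, Psat1 and Shmt2 lie lower with DCA in 6 of 6 mice, and Asns and Psph higher in 6 of 6. In both arms, Trib3, Phgdh and Shmt2 lie higher in experiment 2 without overlap, and Atf4, Chac1, Asns and Psph lower without overlap.

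Phgdh encodes phosphoglycerate dehydrogenase, the first enzyme of serine synthesis. In experiment 1 its level, in CPM after TMM scaling (used for all levels below), was 233, 209 and 199.5 in the untreated cells of mice 1, 2 and 3, and 140.2, 158 and 161 in their DCA cells. In experiment 2 the untreated cells had 553, 552 and 489.6 CPM and the DCA cells 486, 461 and 477. DCA cells lay below untreated cells in 6 of 6 mice, and the groups overlapped in neither experiment. The log2 fold change was -0.32 ± 0.07 (SE, n = 6 libraries per arm; adjusted p = 0.005655, edgeR). Under loess scaling it was -0.19, with an adjusted p of 0.05123 (limma). By experiment, it was -0.48 ± 0.08 in experiment 1 (adjusted p = 0.00111) and -0.16 ± 0.08 in experiment 2 (adjusted p = 0.2823, edgeR, 3 libraries per group).

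Psat1 encodes phosphoserine aminotransferase, the second enzyme. Its untreated levels in experiment 1 were 407, 396 and 429 CPM, and its DCA levels 299, 347 and 358 CPM. In experiment 2 the levels were 346, 369 and 321 CPM without and 314, 302 and 314 CPM with DCA. The transcript was lower with DCA in 6 of 6 mice, again without overlap in either experiment. Its log2 fold change was -0.23 ± 0.06 (adjusted p = 0.01466, edgeR), and -0.09 under loess scaling (adjusted p = 0.2763, limma). In experiment 1 it was -0.30 ± 0.08 (adjusted p = 0.01697), a call that 5 of 12 fits with 1 library left out did not make. Those fits lacked the DCA library of mouse 1 of experiment 1, the untreated library of mouse 1 of experiment 2, or any 1 of the 3 DCA libraries of experiment 2, with an adjusted p of at most 0.07003.

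Psph encodes phosphoserine phosphatase, the last step of serine synthesis, and its values went the other way. Untreated cells of experiment 1 had 122, 129 and 120.0 CPM, and DCA cells 136, 131 and 142 CPM. In experiment 2 they had 82.6, 88.2 and 77.8 CPM, against 93.1, 88.7 and 94.1 CPM with DCA. DCA values were higher in 6 of 6 mice and the groups did not overlap, but the log2 fold change of 0.15 ± 0.05 missed the threshold (adjusted p = 0.0793, edgeR). With loess scaling it was 0.25 (adjusted p = 0.005774, limma), and with the 5 CPM filter 0.19 (adjusted p = 0.01861, edgeR). The exons of Psph share 452 bases, 10.4% of its exonic length in the GENCODE vM21 annotation, with Cct6a on the opposite strand. No source used here gives the strand setting of the counts, so reads there cannot be assigned, and the value of Psph is uncertain to that extent. Cct6a, a chaperonin subunit, had a log2 fold change of -0.34, the opposite sign to Psph.

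Of the mitochondrial enzymes that use serine, Shmt2, which splits serine into glycine and a one-carbon unit, had 134, 157 and 136 CPM in untreated and 97.65, 101 and 122 CPM in DCA cells of experiment 1. In experiment 2 it had 270.5, 263 and 233 CPM without and 221, 216 and 228 CPM with DCA. It was lower with DCA in 6 of 6 mice, without overlap, and its log2 fold change was -0.31 ± 0.07 (adjusted p = 0.00884, edgeR). Under loess scaling the value was -0.19 (adjusted p = 0.06172, limma). In experiment 1 alone the fold change was -0.41 ± 0.09 (adjusted p = 0.008808, edgeR), and -0.34 when only the libraries of experiment 1 were fitted (adjusted p = 0.07033).

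Mthfd2, the mitochondrial folate dehydrogenase and cyclohydrolase, had 245, 257 and 239 CPM in untreated and 178, 212 and 213 CPM in DCA cells of experiment 1. The corresponding values in experiment 2 were 238, 253 and 232 CPM and 242, 234 and 242 CPM. The groups lay apart in experiment 1 and overlapped in experiment 2, where 1 of 3 mice was lower with DCA. Over both experiments the log2 fold change was -0.15 ± 0.07 (adjusted p = 0.1265, edgeR). In experiment 1 it was -0.30 ± 0.08 (adjusted p = 0.01497), a call lost in 6 of 12 fits with 1 library left out. Those fits lacked the untreated library of mouse 2 or the DCA library of mouse 1 of experiment 1, the untreated library of mouse 3 of experiment 2, or 1 of the DCA libraries of experiment 2, and their adjusted p was at most 0.06018.

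Asns, which makes asparagine from aspartate, had 254, 286 and 306 CPM in untreated cells of experiment 1 and 259.6, 301 and 327 CPM in DCA cells. In experiment 2 the levels were 177, 162 and 163 CPM without and 207, 186 and 216 CPM with DCA. Values were higher with DCA in 6 of 6 mice, and the groups overlapped in experiment 1 but not in experiment 2. The log2 fold change was 0.17 ± 0.07 over both experiments (adjusted p = 0.1154, edgeR), 0.30 with loess scaling (adjusted p = 0.005649, limma) and 0.22 with the 5 CPM filter (adjusted p = 0.02313, edgeR). Without the DCA library of mouse 1 of experiment 1 it was also called (0.22, adjusted p = 0.03175).

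Of the regulators, Atf4 had 99.8, 109 and 99.8 CPM in untreated and 117, 103 and 118 CPM in DCA cells of experiment 1. In experiment 2 it had 81.2, 83.1 and 85.5 CPM and 95.2, 86.0 and 90.5 CPM. It was higher with DCA in 5 of 6 mice, with a log2 fold change of 0.13 ± 0.06 (adjusted p = 0.1517, edgeR). The value was 0.23 under loess scaling (adjusted p = 0.01983, limma) and 0.17 with the 5 CPM filter (adjusted p = 0.04557, edgeR).

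Trib3, a pseudokinase that ATF4 induces and that in turn restrains it, had 23.0, 22.7 and 20.8 CPM in untreated and 17.4, 17.0 and 21.7 CPM in DCA cells of experiment 1. In experiment 2 it had 75.0, 71.5 and 60.4 CPM without and 64.1, 53.9 and 52.7 CPM with DCA. The groups overlapped in both experiments, and DCA values were lower in 5 of 6 mice. Its log2 fold change was -0.26 ± 0.09, just outside the threshold by edgeR (adjusted p = 0.05606). It was inside by DESeq2 (adjusted p = 0.01495), by limma-voom (adjusted p = 0.04036) and by edgeR with RLE size factors (adjusted p = 0.0434). It was also inside by edgeR in 2 of 12 fits with 1 library left out, the DCA library of mouse 3 of experiment 1 or the untreated library of mouse 3 of experiment 2 (adjusted p between 0.02699 and 0.1298 over the 12).

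Ddit3 and Chac1 were the least abundant of the 10 genes per base. Ddit3, which encodes the stress-induced factor CHOP, ranged from 10.6 to 17.2 CPM over the 12 libraries, was higher with DCA in 3 of 6 mice and had a log2 fold change of 0.04 ± 0.12 (adjusted p = 0.8681, edgeR). Its annotated exons share 105 bases with a further gene entry of the same name and 68 with the methionine tRNA synthetase gene on the opposite strand. Chac1, an enzyme that degrades glutathione, had 5.59, 5.76 and 5.53 CPM in untreated and 7.82, 6.42 and 8.01 CPM in DCA cells of experiment 2. Its range in experiment 1 was 8.48 to 12.01 CPM without and 8.25 to 10.1 CPM with DCA. The groups lay apart in experiment 2 and overlapped in experiment 1, and the log2 fold change over both was 0.15 ± 0.14 (adjusted p = 0.5485, edgeR).

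The share of genes that moved the same way in all mice sets the scale for these counts. Of the 10 genes, 5 changed in 1 direction in 6 of 6 mice (3 lower, 2 higher), beside 19.1% of all tested genes (10.8% lower and 8.31% higher). In experiment 1, 5 of 10 genes had arms that did not overlap, beside 29.3% of tested genes (18.0% lower and 11.3% higher). In experiment 2 it was 7 of 10, beside 30.2% (14.6% lower and 15.6% higher). In both experiments Phgdh, Psat1 and Shmt2 were below and Psph above.

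**Figure D2:**
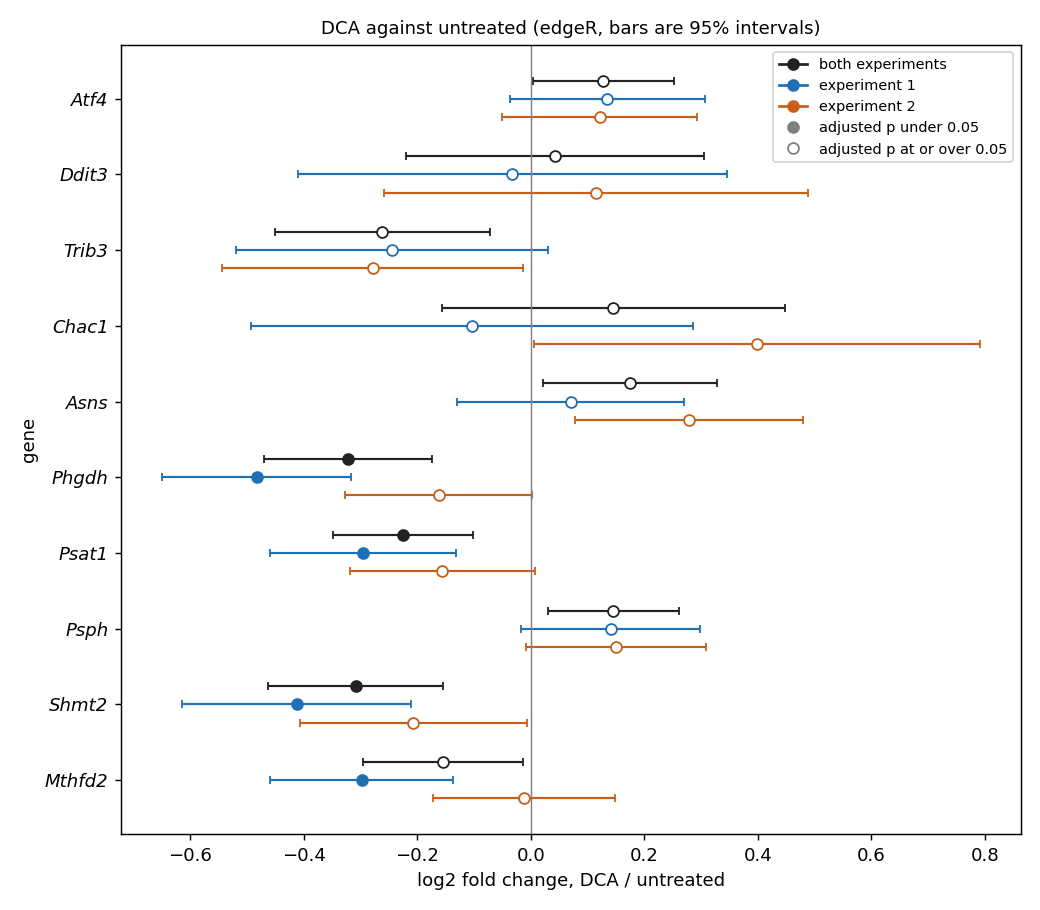
Log2 fold change of each gene with DCA against untreated cells (horizontal axis) over both experiments and within each, with 95% intervals from edgeR; filled points have an adjusted p under 0.05. Filled points are Phgdh, Psat1 and Shmt2 over both experiments and these and Mthfd2 in experiment 1; no point of experiment 2 is filled.

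Within experiment 1, the edgeR test called 4 of the 10 genes, beside 16.7% of tested genes (1733 of 15688 lower and 889 higher). All 4 were lower with DCA (Phgdh, Shmt2, Mthfd2 and Psat1), and no member was higher at an unadjusted p under 0.05 either. These calls use a spread estimated from all 12 libraries. With only the libraries of experiment 1 in the fit, 1 member was called lower, where 557 of 13526 genes were higher and 694 lower. In experiment 2 the edgeR test called 0 of 10, beside 4.57% of tested genes (2.37% higher and 2.20% lower). At an unadjusted p under 0.05 it had 2 higher and 2 lower there, beside 2870 of 15688 tested genes in either direction. DESeq2 and limma-voom called 0 of the 10 genes there. With only the libraries of experiment 2 in the fit, 1 member was called higher, where 896 of 14826 genes were higher and 668 lower. Loess scaling gave 2 higher and 1 lower in experiment 1, and 1 higher in experiment 2 (Asns, 0.36, adjusted p = 0.03552, limma). The test of the difference between the effects called 0 of 10 genes, beside 0.331% of tested genes (0.280% with a higher and 0.0510% with a lower effect in experiment 2), and DESeq2, limma-voom and loess scaling also called 0. At an unadjusted p under 0.05 it had 2, both with a smaller fall in experiment 2, beside 2226 of 15688 tested genes. The difference was 0.32 ± 0.11 for Phgdh (95% interval 0.09 to 0.56, adjusted p = 0.1907) and 0.29 ± 0.11 for Mthfd2 (0.06 to 0.51, adjusted p = 0.2248). For Chac1 it was 0.50 ± 0.26 (-0.05 to 1.06, adjusted p = 0.4083). The effects were therefore not shown to differ between the experiments.

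Ratios of members within a library do not depend on the library's scaling factor. The pairs were chosen after the values were seen and are given without a test. Phgdh, Psat1 and Shmt2 fell and Psph and Asns rose in 6 of 6 mice. A fall of the ratios between them in 6 of 6 mice follows from that and adds no further support. Per kilobase of the authors' gene length, Phgdh stood to Psph at 2.83 to 3.33 in untreated and 1.79 to 2.10 in DCA cells of experiment 1. In experiment 2 the ratio was 10.9 to 11.7 and 8.83 to 9.09. It fell with DCA in 6 of 6 mice, by 0.47 ± 0.23 on the log2 scale (SD, n = 6 mice). The ratio to Psph was lower in 6 of 6 mice for 20.7% of tested genes. It was so for all 4 of the members compared with it, with mean changes of -0.37 ± 0.15 for Psat1, -0.46 ± 0.15 for Shmt2 and -0.30 ± 0.19 for Mthfd2. Against Asns the mean changes were -0.49 ± 0.14 for Phgdh, -0.40 ± 0.09 for Psat1 and -0.48 ± 0.15 for Shmt2, each lower in 6 of 6 mice, beside 23.6% of tested genes. Trib3 against Atf4 changed by -0.39 ± 0.16, lower in 6 of 6 mice, beside 17.6% of tested genes. The fitted fold change of Phgdh minus that of Psph lay between -0.47 and -0.43 in 8 settings of scaling, filter and tool, loess scaling included.

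Levels were also ordered within each group. Per kilobase, the order in untreated cells of experiment 1 was Asns (103 ± 9.64 CPM per kb, SD, n = 3), Psat1 (96.6 ± 4.005) and Phgdh (86.0 ± 6.83), whose ranges overlapped with their neighbours. Mthfd2 (70.8 ± 2.73) came next, then Shmt2 (45.8 ± 4.15) and Atf4 (43.6 ± 2.16), which overlapped, and Psph (28.5 ± 1.09). Trib3 (10.4 ± 0.573), Ddit3 (7.72 ± 0.812) and Chac1 (6.20 ± 1.09) were lowest, and the last pair overlapped. In untreated cells of experiment 2 Phgdh stood first (214 ± 14.6 CPM per kb), above Shmt2 (82.2 ± 6.34) and Psat1 (81.2 ± 5.64), which overlapped. Mthfd2 (69.1 ± 3.11) and Asns (61.2 ± 2.93) followed, then Atf4 (35.3 ± 0.921) and Trib3 (32.5 ± 3.58), which overlapped. Psph (19.1 ± 1.19), Ddit3 (8.55 ± 1.40) and Chac1 (3.44 ± 0.0731) closed the order. With DCA, Asns was first in experiment 1 (108 ± 12.4 CPM per kb) and did not overlap with Psat1 (78.7 ± 7.46). In experiment 2 with DCA, Phgdh remained first (191 ± 4.97), and Asns, Psat1, Shmt2 and Mthfd2 overlapped with their neighbours between 68.6 and 74.3 CPM per kb.

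**Figure D3:**
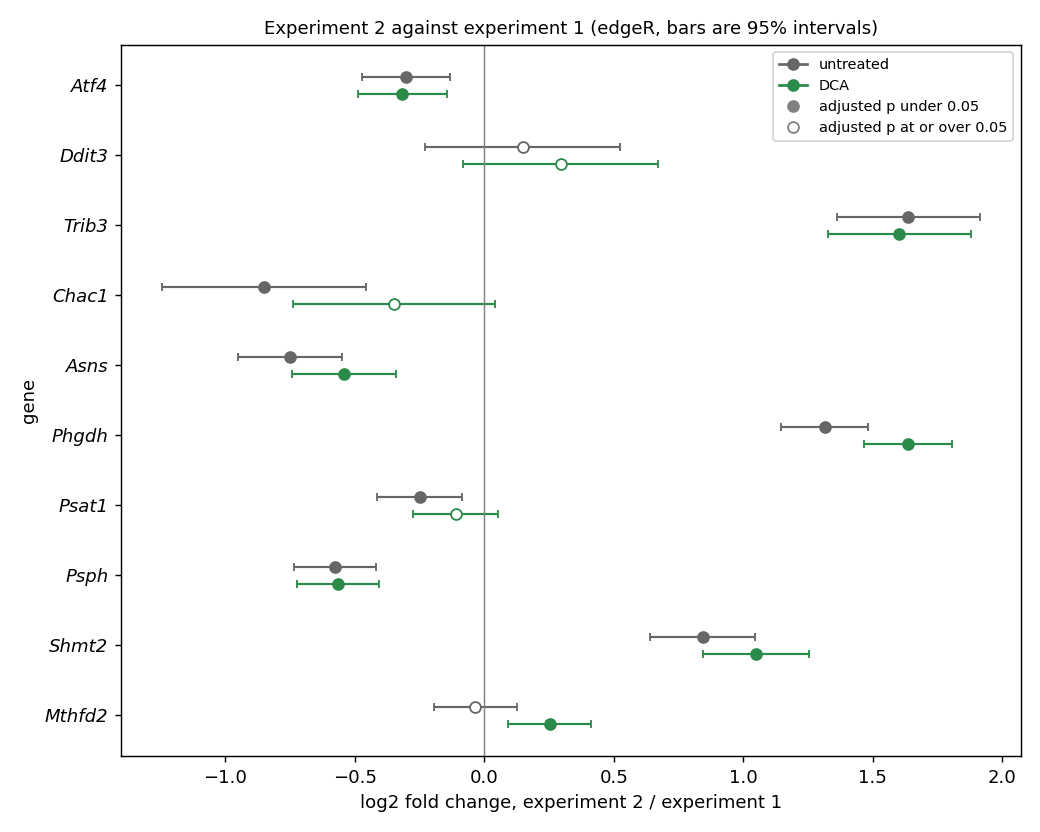
Log2 fold change of experiment 2 against experiment 1 (horizontal axis) in untreated and in DCA cells, with 95% intervals from edgeR under TMM scaling; filled points have an adjusted p under 0.05. Trib3, Phgdh and Shmt2 lie to the right in both arms; Psat1, Mthfd2, Atf4 and Ddit3 in untreated cells and Psat1 in DCA cells take the other sign under loess scaling.

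In untreated cells, 8 of 10 genes differed between the experiments (3 higher and 5 lower in experiment 2), where 51.8% of all tested genes did (26.7% higher and 25.2% lower). Higher in experiment 2 were Trib3 (log2 1.64 ± 0.13, adjusted p = 5.26e-08, edgeR), Phgdh (1.31 ± 0.08, adjusted p = 2.95e-09) and Shmt2 (0.84 ± 0.09, adjusted p = 2.558e-06). Lower there were Chac1 (-0.85 ± 0.18, adjusted p = 0.001238), Asns (-0.75 ± 0.09), Psph (-0.58 ± 0.07), Atf4 (-0.30 ± 0.08) and Psat1 (-0.25 ± 0.08). The 3 enzymes of serine synthesis thus differed in sign, with Phgdh higher and Psat1 and Psph lower under TMM scaling. In DCA cells 4 genes were higher and 3 lower, where 52.3% of tested genes differed (28.1% higher and 24.1% lower). Those higher were Phgdh (1.63 ± 0.08), Trib3 (1.60 ± 0.13), Shmt2 (1.05 ± 0.09) and Mthfd2 (0.25 ± 0.08), and those lower Psph (-0.57 ± 0.07), Asns (-0.54 ± 0.09) and Atf4 (-0.32 ± 0.08).

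Scaling also changed these values. Loess scaling moved the median log2 difference of all genes in untreated cells from 0.11 to -0.02. It left Trib3 (1.65), Phgdh (1.92) and Shmt2 (1.31) higher and Chac1 (-1.09) and Psph (-0.23) lower, all called by limma. Psat1 turned to 0.39 (adjusted p = 0.000206) and Mthfd2 to 0.51 (adjusted p = 1.202e-05), Atf4 was at 0.02, Ddit3 at -0.07, and Asns (-0.21) was no longer called (adjusted p = 0.06094). Under TMM scaling, leaving out 1 of the 3 untreated libraries of experiment 2 ended the call of Atf4 (adjusted p of at most 0.1022). The call of Psat1 ended without the untreated library of mouse 1 or 3, or without 1 of the DCA libraries, of experiment 2 (adjusted p of at most 0.2551). In DCA cells the call of Mthfd2 ended without the DCA library of mouse 1 of experiment 1 or of mouse 3 of experiment 2 (adjusted p of at most 0.05441). Ddit3, not called there with all libraries, was called higher in experiment 2 (0.48, adjusted p = 0.04182) without the DCA library of mouse 1 of experiment 1.

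The wider pathway was followed in 4 gene lists that exclude the 10 genes. Of 13 genes for eIF2 alpha kinases, their activators, eIF2, eIF2B and the phosphatase subunits, 4 were lower with DCA over both experiments and 0 higher. Their median log2 fold change was -0.022, beside -0.015 over all tested genes, of which 9.80% were lower and 7.01% higher. With a term per mouse 3 of the 13 were lower. Eif2b4, a subunit of the exchange factor that phosphorylated eIF2 blocks, had a log2 fold change of -0.53 ± 0.09 (adjusted p = 0.001063, edgeR). Eif2ak1, the heme-regulated kinase, had -0.40 ± 0.09 (adjusted p = 0.005812). The others called were Eif2s1, which is eIF2 alpha itself (-0.25 ± 0.06, adjusted p = 0.00702), and Gcn1, an activator of the amino acid sensing kinase (-0.37 ± 0.11, adjusted p = 0.02681), both named after their values were seen. Eif2s1 was not called with loess scaling (adjusted p = 0.1641, limma). The call of Gcn1 ended with a term per mouse (adjusted p = 0.06068, edgeR) and without a filter (adjusted p = 0.08148). It also ended without 1 library, untreated or DCA, of mouse 2 of experiment 1, without the DCA library of mouse 1 there, and without the untreated library of mouse 1 or the DCA library of mouse 1 or 2 of experiment 2 (adjusted p of at most 0.06083). No kinase gene was called higher in this fit. The largest rise of the 13 was that of Eif2ak4, the amino acid sensing kinase (0.39 ± 0.14, adjusted p = 0.06851, edgeR), named after its value was seen. Of the 13 genes, DESeq2 called 1 higher and 5 lower, where 1377 of 15688 genes were higher and 2079 lower. With the 5 CPM filter edgeR called 1 higher and 4 lower, where 1250 of 9803 genes were higher and 1322 lower. The fit without the DCA library of mouse 3 of experiment 2 also had 1 higher and 4 lower. The 5 partners and related factors of ATF4 had 2 higher and 0 lower and a median of 0.56. Atf3, a stress-induced factor, rose from 4.61 ± 1.4995 to 6.84 ± 2.15 CPM in experiment 1 and from 10.5 ± 0.788 to 19.6 ± 1.38 CPM in experiment 2 (log2 0.74 ± 0.18, adjusted p = 0.01037). The other was Nupr1 (0.56 ± 0.18, adjusted p = 0.04345), named after its value was seen. Its call ended in 9 of 12 fits with 1 library left out (adjusted p of at most 0.09346), so that 1 of the 5 was then higher. It held without the untreated library of mouse 3 of experiment 1, or the untreated library of mouse 1 or the DCA library of mouse 2 of experiment 2. Atf3 was called in 12 of 12 such fits.

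Of 22 tested further ATF4 targets, 1 was higher and 1 lower by edgeR with TMM scaling, with a median of 0.02. This count depended on the setting. With loess scaling and limma, 4 were higher and 0 lower, where 1231 of 15688 genes were higher. On genes of at least 5 CPM in 3 libraries, 6 of 17 were higher and 0 lower, where 1250 of 9803 genes were higher. DESeq2 gave 3 higher and 2 lower, limma-voom 3 and 1, and a term per mouse 0 and 0. Pck2, the mitochondrial phosphoenolpyruvate carboxykinase, rose (0.32 ± 0.10, adjusted p = 0.03592), but not with a term per mouse (adjusted p = 0.07351, edgeR), and its call ended in 8 of 12 fits with 1 library left out (adjusted p of at most 0.08545). Aldh18a1, an enzyme of proline synthesis, fell (-0.23 ± 0.07, adjusted p = 0.03415) and was named after its value was seen. Its call ended with a term per mouse (adjusted p = 0.06624), with the filter at 5 CPM (adjusted p = 0.05867), without a filter (adjusted p = 0.07554) and with loess scaling (adjusted p = 0.2146, limma). With 1 library left out it ended in 10 of 12 fits (adjusted p of at most 0.09602), all but those without a library of mouse 3 of experiment 1. The 12 cytosolic aminoacyl-tRNA synthetases, which charge tRNAs and are ATF4 targets in many cells, all had negative values under TMM scaling, with a median of -0.26, and 9 were called lower. Among them were Eprs (-0.29 ± 0.05, adjusted p = 0.002294) and Gars (-0.26 ± 0.06, adjusted p = 0.00552). With loess scaling 1 of the 12 was called lower, and Eprs (adjusted p = 0.05127) and Gars (adjusted p = 0.1033) were not called (limma). The shares by edgeR with TMM scaling over 15688 genes stand beside 7.01% of these genes higher and 9.80% lower.

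Of 25 tested further genes of serine, glycine and folate one-carbon metabolism, 1 was higher and 8 lower, with a median of -0.20. Of all tested genes 7.01% were higher and 9.80% lower. With a term per mouse 0 of the 25 were higher and 7 lower. Sfxn1, the carrier that brings serine into mitochondria, fell from 378 ± 11.3 to 245 ± 17.7 CPM in experiment 1 and from 334 ± 12.8 to 277 ± 15.6 CPM in experiment 2 (log2 -0.45 ± 0.07, adjusted p = 0.0006906, edgeR). Ppat, the first committed enzyme of purine synthesis, which uses one-carbon units further down, fell by 0.51 ± 0.08 on the log2 scale (adjusted p = 0.0008887). Both were also called within experiment 2 (adjusted p = 0.0409 and 0.03539) and with loess scaling (adjusted p = 0.001894 and 0.002089, limma). The 4 list genes that did not pass the filter were Fgf21, Cbs, Slc6a9 and Sds, with 7 to 72 counts each in all 12 libraries together.

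The endoplasmic reticulum (ER) stress arms run beside ATF4. Of 23 genes of the IRE1 and ATF6 arms and their chaperone targets, 14 were lower with DCA and 0 higher, with a median of -0.41, where 9.80% of all tested genes were lower. Creld2 fell from 221 ± 33.3 to 127 ± 13.8 CPM in experiment 1 and from 120.3 ± 16.6 to 81.6 ± 2.79 CPM in experiment 2 (log2 -0.68 ± 0.09, adjusted p = 0.0003367). Dnajc3, a chaperone that restrains the ER-resident eIF2 alpha kinase, fell by 0.45 ± 0.06 on the log2 scale (adjusted p = 0.0003727). With loess scaling 13 of the 23 were lower.

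**Figure D4:**
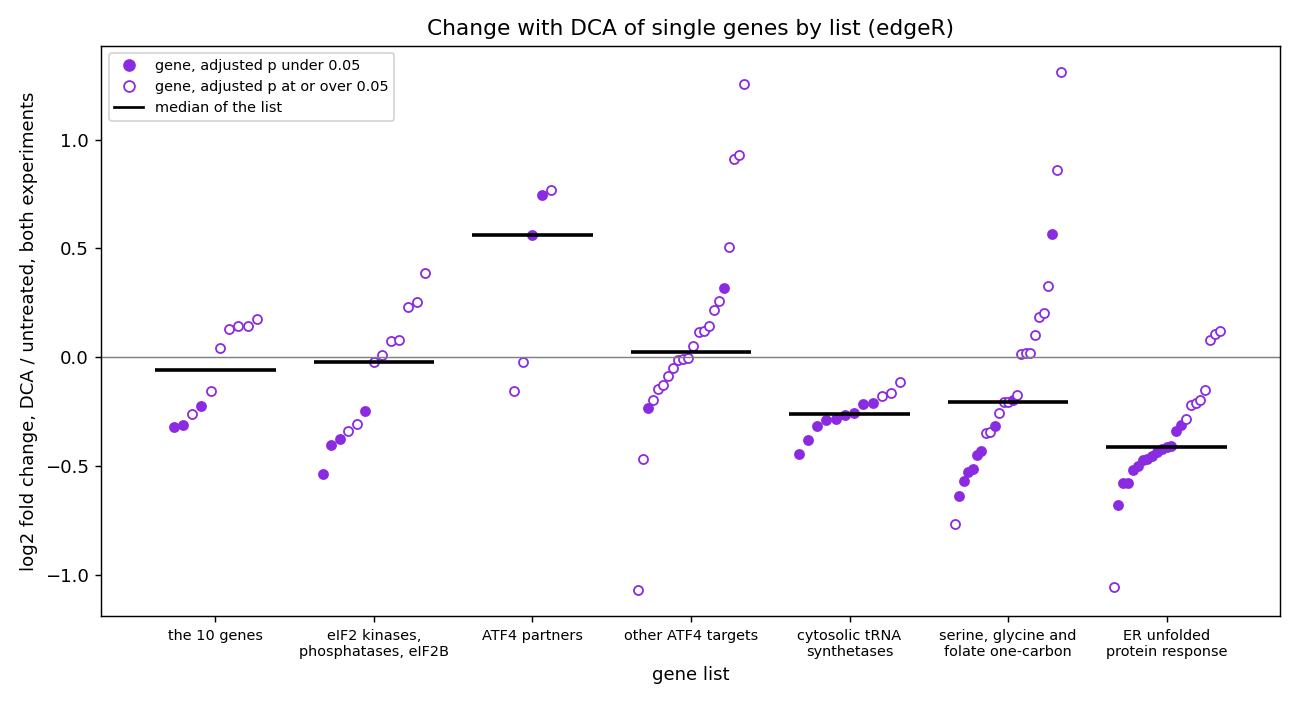
Log2 fold change with DCA over both experiments (vertical axis) for each tested gene of the 10 members and of the fixed lists (horizontal axis), filled where the adjusted p was under 0.05 by edgeR, with a bar at each list's median. The medians run from -0.41 for the ER genes to 0.56 for the ATF4 partners; with loess scaling 1 of 12 tRNA synthetases stays filled.

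How the 10 genes varied together was described from deviations of log2 CPM from the mean of each group, over 12 libraries that share their mice in pairs. The 6 pairs among Phgdh, Psat1, Shmt2 and Mthfd2 had Pearson correlations of 0.461 to 0.768. When deviations were taken from the mean of each experiment, so that the DCA difference was left in, they were 0.84 to 0.898. Atf4 and Chac1 correlated at 0.813, and Ddit3 and Psat1 at -0.84. Psph correlated with Phgdh at 0.395 within groups and at -0.565 within experiments, where the DCA differences of opposite sign enter. Among the 7912 genes whose mean log2 CPM was 3 or more, those most like Phgdh within groups were Psmc3 (0.963), Kat14 (0.954) and Bop1 (0.954), and those most like Psat1 were Rabif (0.964), Ints11 (0.936) and Ppp4c (0.934). Wdr36 (0.963) was most like Mthfd2, Ints13 (0.945) most like Shmt2 and Ppib (0.954) most like Asns. These correlations are descriptions over few libraries and carry no p.

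**Figure D5:**
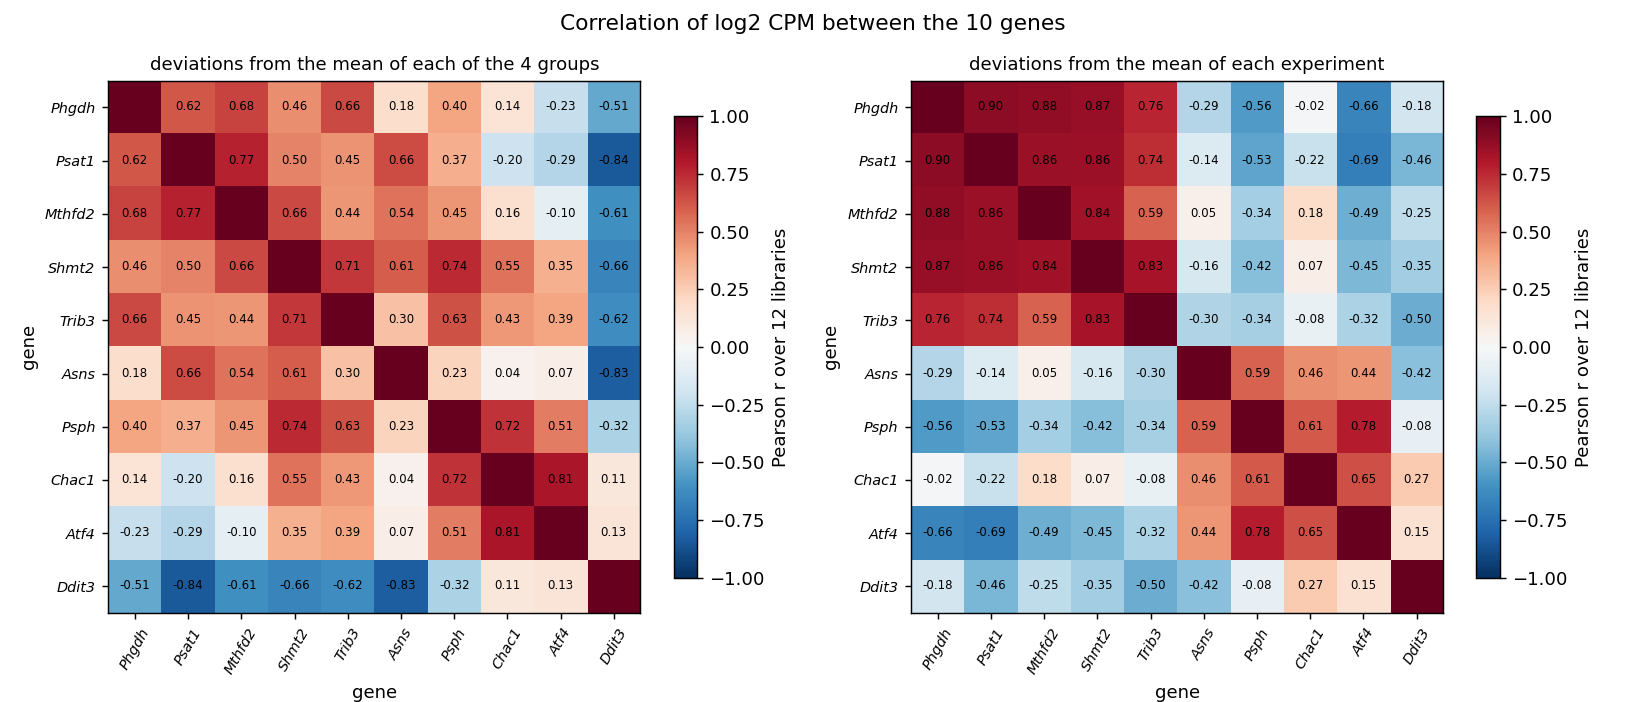
Pearson correlation over 12 libraries of log2 CPM between the 10 genes (both axes), from deviations from the mean of each of the 4 groups (left) and of each experiment (right); colour and printed values give r. Phgdh, Psat1, Mthfd2 and Shmt2 are positive with each other and with Trib3 in both, and on the left also with Asns and Psph. Psph against Phgdh is positive on the left and negative on the right.

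In the authors' deposited table of DCA against untreated cells, which lists 15067 genes, 2 of the 10 genes had a false discovery rate under 0.05. In that authors' deposited table Phgdh had a log2 fold change of -0.32 (false discovery rate 0.02806) and Shmt2 -0.31 (0.04242). Psat1, at -0.22, had a false discovery rate of 0.1308 in the authors' deposited table, and so missed the threshold that it passed in the fit above. Of all genes in the authors' deposited table, 1588 were under 0.05, against 2638 of 15688 in the edgeR fit above over both experiments. The cause of this difference was not tested.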

How the data were processed

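RNA was measured in 12 libraries of CD8+ T cells, amplified as cDNA over 15 cycles per the labels' protocols. The authors deposited whole-number read counts per gene with no normalization, and no molecular identifiers are named. The submitters' processing notes name the build GRCm39 and the tools STAR 2.7.10a, fastp 0.23.2 and edgeR 3.36.0, while no source used here gives the counter, the annotation or the strand setting. The authors also deposited their own table of log2 fold changes and log2 CPM, p-values with false discovery rates, and gene lengths in bases, per the file headers. All value columns were mapped (0 were not).

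Counts were tested with edgeR 4.0.16 (R 4.3.3) by the quasi-likelihood test with TMM factors, after filterByExpr by the 4 groups, with Benjamini-Hochberg adjustment over 15688 genes and a threshold of 0.05. The DCA effect over both experiments was fitted with experiment as a covariate. Effects within experiments, their difference and experiment 2 against experiment 1 were contrasts of 4 group means fitted to all 12 libraries. The SE of a log2 fold change is its size divided by the square root of F. Adjusted p-values are from this test unless another tool is named. Replicates of a group are different mice.

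Each mouse gave both arms, per the series' design text. Deviations from group means correlated at 0.0443 to 0.0834 between libraries of the same mouse and at -0.0689 to -0.00438 between mice. No libraries agreed within sampling noise. Library totals of 28039699 to 41051066 counts leave the lowest member, Chac1, 183 to 403 counts per library; counting error only is covered by such numbers.

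Alternatives were RLE size factors, cyclic loess with limma 3.58.1, limma-voom, DESeq2 1.42.0, no filter, a filter at 5 CPM in 3 libraries, a replicate block by mouse, a fit without the experiment term, only the groups compared, and each library left out in turn. The test was first tested on simulated counts, with 200 changed genes drawn from all tested genes. Over both experiments it recovered 2.99% of changes of log2 0.25, 26.9% of 0.5 and 62.1% of 1, with 3 false calls among 64. Within experiment 1 it recovered 0%, 10.4% and 47%, and within experiment 2 0%, 8.96% and 42.4%. In the data 2638 genes were called over both experiments, far more than the 200 changed here, which also came from all levels of expression. The rates are therefore not those of the 10 genes. A gene that was not called may still have changed.

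The members and lists were chosen with earlier results of these data known. Named besides the members were up to 2 rising and 2 falling genes of each of 4 lists by adjusted p, and up to 3 genes most like a member. A gene of the one-carbon list that met this rule is not reported here. Of the list genes, 11 were matched through an older symbol. Promoter windows are from RefSeq (GRCm38.p6), and exon overlaps from GENCODE vM21; the counts' build was not mixed with their coordinates.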

Additional observations from a re-analysis of the deposited data

How the results depend on the processing

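Over both experiments Phgdh, Psat1 and Shmt2 were called lower in 12 of 12 fits with 1 library left out; 3 to 4 members were then lower and 0 to 1 higher, with 1981 to 2588 genes called in all. Within experiment 1, 2 to 4 members were lower and 1759 to 2653 genes called, in experiment 2 0 members and 210 to 824 genes, and for the difference of effects 1 to 217 genes. For experiment 2 against experiment 1, untreated cells had 3 members higher, 3 to 5 lower and 7435 to 8361 genes called, and DCA cells 3 to 4 higher, 3 lower and 7261 to 8422 genes. Values near 0 took both signs among these fits: Ddit3 over both experiments (-0.026 to 0.106), in experiment 1 (-0.212 to 0.0924) and in experiment 2 (-0.043 to 0.203), Chac1 in experiment 1 (-0.22 to 0.036), Asns in experiment 1 (-0.0082 to 0.154) and Mthfd2 in untreated cells (-0.059 to 0.068).

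Cyclic loess with limma changed these calls: over both experiments 3 members higher and 0 lower, in experiment 1 2 and 1, in experiment 2 1 higher, in untreated cells 5 higher and 2 lower in experiment 2, and 30 genes for the difference of effects. Under it the values of Mthfd2 in experiment 2 (0.068), Atf4 (0.023), Ddit3 (-0.072), Psat1 (0.39) and Mthfd2 (0.51) in untreated cells and Psat1 (0.44) in DCA cells took the other sign. Over all genes it called 1231 higher and 1041 lower with DCA, against 1100 and 1538 under TMM. TMM factors were higher with DCA in 6 of 6 mice, by 0.0328 to 0.0975. The cause of these shifts was not tested.

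The 5 CPM filter gave 3 members higher over both experiments, 1 higher and 2 lower in experiment 1, and turned Ddit3 in experiment 1 (0.058) and Mthfd2 in untreated cells (0.021). No filter called 1116 genes in experiment 2, 566 for the difference and 3 members lower in untreated cells, and turned Mthfd2 there (0.0084). DESeq2 called 1512 genes in experiment 2 and 458 for the difference, and limma-voom 1171 in experiment 2. Without the experiment term 46 genes were called over both experiments, 38 higher and 8 lower, and 0 members lower. With only the 2 groups compared, 1251 genes and 1 member lower were called in experiment 1 (Ddit3 at 0.044), and 1564 genes and 1 member higher in experiment 2. The correlation of Psph with Phgdh turned to -0.565 within experiments.

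With the replicate block by mouse, the pairing given by the design, the same 3 members were lower over both experiments and 4 in experiment 1, and the difference of effects had 24 genes in place of 52. No paired analysis was possible because no mouse was in both experiments for experiment 2 against experiment 1. Chac1, with 183 to 403 counts per library, was the member with the fewest counts.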
